A study of Mus musculus with 8 samples.

Results

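The mouse Fc gamma receptor genes Fcgr1, Fcgr2b, Fcgr3 and Fcgr4, together with Fcer1g, which encodes the common gamma chain of the activating receptors, were followed in a progenitor line that lost either of 2 factors that hold it in self-renewal. The 5 genes were taken by name from the 34199 genes of the deposited count tables, and all 5 were among the 13080 genes with enough reads to test. Every library was of immortalized granulocyte-macrophage progenitor (iGMP) cells, mouse C57Bl/6 bone marrow cells that carry the homeobox factor HOXA9 fused to the hormone-binding part of the estrogen receptor, grown with stem cell factor. Uninduced iGMPs were kept with 150 ng/ml estradiol, which holds the fusion protein active, and sampled at 0 h. CAF-1 OFF cells were given 500 µM IPTG with estradiol for 48 h to express a short hairpin RNA against Chaf1b, a subunit of the histone chaperone CAF-1. HOXA9 OFF cells were washed and cultured without estradiol for 48 h. IPTG control cells received IPTG for 48 h with no CAF-1 suppression stated in their label. The growth medium given for all the cells held 150 ng/ml estradiol and no wash is stated for the IPTG control, whose label does not give the vector they carried or their IPTG dose. In its single-cell experiment the study used control-vector clones for HOXA9 OFF and Chaf1b hairpin clones for CAF-1 OFF. Whether the groups here also differ in clone or vector was not tested.

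Each group had 2 libraries, and the labels do not say what the replicates are. The study's supplement speaks of RNA-seq in a pair of independent sub-clones, but the labels do not tie a replicate number to a sub-clone, so the p-values measure the spread between these libraries, which may be technical. The lines are immortalized and, by the study's methods, clonal, and all 4 groups carry the HOXA9 fusion. Total gene counts ran from 14044284 to 22423837 per library, and the 5 genes took 0.0314 to 0.0327% of them in the uninduced and IPTG control libraries, 0.0619 to 0.0683% in CAF-1 OFF and 0.116 to 0.123% in HOXA9 OFF. The IPTG control replicate 1 stood apart by the share of uniquely aligned reads outside any gene, 14.6% against 5.30 to 7.79% in the other 7. The targeted gene Chaf1b was lower in CAF-1 OFF than in uninduced cells by -2.79 ± 0.27 (log2 fold change ± SE, FDR = 0.00236 by edgeR's quasi-likelihood test with Benjamini-Hochberg adjustment), and it was lower in HOXA9 OFF as well, by -1.14 ± 0.25 (FDR = 0.00574 by the same test). Markers of granulocyte-macrophage progenitors, with Mpo, Cd34, Kit and Ctsg among them, were detected in every library.

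Fc gamma receptors are the cell surface proteins with which macrophages, neutrophils, mast cells and other leukocytes bind the constant part of immunoglobulin G. FcγRI (Fcgr1, high affinity), FcγRIII (Fcgr3, low affinity) and FcγRIV (Fcgr4, intermediate affinity) have no signalling motif of their own in the mouse and depend on the gamma chain, whose immunoreceptor tyrosine-based activation motif (ITAM) is phosphorylated by SRC-family kinases and then recruits the kinase SYK. FcγRIIB (Fcgr2b) is the inhibitory receptor: it carries an immunoreceptor tyrosine-based inhibition motif in its own tail, needs no gamma chain and recruits the phosphatase SHIP1, the product of Inpp5d.

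In genome build mm9 with the GENCODE vM1 annotation, 4 of the 5 genes lie on chromosome 1. Fcgr2b (chr1:172890689-172906678, minus strand), Fcgr4 (chr1:172949051-172959892, plus strand) and Fcgr3 (chr1:172981300-172995066, minus strand) fill a cluster of 104 kb, Fcer1g (chr1:173159703-173164496, minus strand) lies 165 kb beyond it, and Fcgr1 (chr3:96086832-96098179, minus strand) is on chromosome 3. No annotated exon of another gene overlapped an exon of any of the 5. Fcgr2b and Fcgr3 are near copies over part of their length: 166 windows of 50 bases occurred in both, leaving 89.3% of Fcgr2b windows and 87.2% of Fcgr3 windows unique, while the other 3 genes were unique throughout. How reads from the shared stretch were counted was not tested, so the counts of Fcgr2b and Fcgr3 are uncertain there.

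The 100 bases before each gene's start are printed here because the genes shared one direction in HOXA9 OFF and split in CAF-1 OFF (RefSeq, build GRCm38.p6, which is not the build of the counts). Capitals mark letters that matched a motif, written on the gene's own strand.
Fcgr2b, chr1:170976072-170976171, minus strand: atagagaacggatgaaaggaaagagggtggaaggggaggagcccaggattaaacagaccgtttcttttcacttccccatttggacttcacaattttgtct
Fcgr1, chr3:96293970-96294069, minus strand: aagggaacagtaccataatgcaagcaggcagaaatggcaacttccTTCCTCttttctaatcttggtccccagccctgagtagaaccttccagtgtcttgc
Fcgr3, chr1:171059404-171059503, minus strand: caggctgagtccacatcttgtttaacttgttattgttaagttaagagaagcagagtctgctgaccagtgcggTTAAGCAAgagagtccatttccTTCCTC
Fcgr4, chr1:171018826-171018925, plus strand: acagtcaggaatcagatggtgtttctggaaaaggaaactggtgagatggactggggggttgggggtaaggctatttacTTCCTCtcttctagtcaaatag
Fcer1g, chr1:171234350-171234449, minus strand: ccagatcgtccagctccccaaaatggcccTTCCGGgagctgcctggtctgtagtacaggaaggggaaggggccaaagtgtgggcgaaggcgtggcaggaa

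The motifs were searched on both strands in the 250 bases before the start. Fcgr3 had 2 starts in the promoter source, and only the first listed was printed and searched, so its matches hold for that start. The box GAGGAA of the myeloid factor PU.1, which reads TTCCTC on the other strand, was found in Fcgr1, Fcgr3 and Fcgr4, that is in 3 of the 5 genes, against 23.1% of 27025 promoters of the same length. It lay within the last 55 bases before the start in all 3, and in Fcgr3 it ended at the last base. The ETS-type letters CCGGAA were found in Fcer1g alone among the 5 (12.2% of all promoters), the C/EBP letters TTGCNNAA in Fcgr3 alone (9.55%), and the GAS letters TTCNNNGAA in Fcgr1 alone (7.18%), where they lay 109 to 101 bases before the start and so outside the stretch printed. Fcgr2b held no exact match to any of the 4 motifs, and looser versions of the motifs were not searched. A match is a description of letters and says nothing of binding.

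The inhibitory receptor gene Fcgr2b rose to overlapping levels in both treatments. In CPM, the read count divided by the library size after TMM scaling, Fcgr2b stood at 69.4 and 59.9 in uninduced replicates 1 and 2, at 67.7 and 55.7 in the IPTG control, at 225 and 274 in CAF-1 OFF and at 258 and 215 in HOXA9 OFF. Both treated groups lay above every control library and overlapped each other. The rise was 3.87-fold in CAF-1 OFF (log2 fold change 1.95 ± 0.16, FDR = 0.00163) and 3.66-fold in HOXA9 OFF (1.87 ± 0.16, FDR = 5.92e-05), by edgeR's quasi-likelihood test with p-values adjusted across every tested gene. These comparisons share the uninduced libraries. The direct difference of CAF-1 OFF from HOXA9 OFF was 0.08 ± 0.15 on the log2 scale, with a 95% interval of -0.28 to 0.44 and an FDR of 0.692 in the same edgeR fit.

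The activating receptor genes rose in both treatments. Fcgr3 and Fcgr4 rose further in HOXA9 OFF, while for Fcgr1 that difference depended on single libraries. Fcgr3, the low-affinity receptor, had 93.6 and 64.5 CPM in the uninduced libraries, 93.1 and 69.0 CPM in the IPTG control, 164 and 193 CPM in CAF-1 OFF and 553 and 462 CPM in HOXA9 OFF. The 3 levels (control, CAF-1 OFF, HOXA9 OFF) did not overlap. The change from uninduced was 2.26-fold in CAF-1 OFF (log2 1.18 ± 0.22, FDR = 0.0128) and 6.42-fold in HOXA9 OFF (2.68 ± 0.23, FDR = 5.44e-05), and CAF-1 OFF was below HOXA9 OFF by -1.50 ± 0.22 (FDR = 0.000897), all by edgeR's quasi-likelihood test.

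Fcgr4 was low before treatment and changed most of the 5 genes in both treatments. It had 16 and 10 counts in the uninduced libraries (0.712 and 0.428 CPM) and 10 and 9 counts in the IPTG control (0.706 and 0.552 CPM), above the floor of 3 counts. CAF-1 OFF gave 10.2 and 23.3 CPM from 194 and 447 counts, and HOXA9 OFF 64.4 and 48.2 CPM from 1188 and 973 counts. The groups again stood in 3 separate steps, with a wide gap between the CAF-1 OFF replicates. The edgeR log2 fold change from uninduced was 4.87 ± 0.48 in CAF-1 OFF (FDR = 0.00245) and 6.62 ± 0.50 in HOXA9 OFF (FDR = 3.59e-05), and the direct difference was -1.75 ± 0.37 (FDR = 0.00557). Without CAF-1 OFF replicate 2 the change in CAF-1 OFF was 4.15 (FDR = 0.00574) and the direct difference -2.46 (FDR = 0.00215), and without CAF-1 OFF replicate 1 the latter was -1.27 (FDR = 0.0167), in the same edgeR test.

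Fcgr1, the high-affinity receptor of monocytes and macrophages, had 10.1 CPM in both uninduced libraries, 10.8 and 11.9 CPM in the IPTG control, 28.7 and 33.6 CPM in CAF-1 OFF and 38.8 and 97.7 CPM in HOXA9 OFF. All treated libraries were above the controls, but the HOXA9 OFF replicates differed from each other more than replicate 1 differed from CAF-1 OFF. The edgeR log2 fold change was 1.62 ± 0.38 in CAF-1 OFF (FDR = 0.0247) and 2.76 ± 0.39 in HOXA9 OFF (FDR = 0.000606), with -1.13 ± 0.36 between them (FDR = 0.031). That last call was lost in 5 of 8 single omissions, those of either uninduced, either CAF-1 OFF or HOXA9 OFF replicate 2. Its size moved most with the HOXA9 OFF libraries: without replicate 2 the value was -0.33 (FDR = 0.153) and the rise in HOXA9 OFF 1.94 (FDR = 7.77e-05), while without HOXA9 OFF replicate 1 they were -1.66 (FDR = 0.000174) and 3.27 (FDR = 1.47e-05), by the same edgeR test. The replicates also differed in markers of other cells, the summed level of 8 monocyte and macrophage markers being 1436 CPM in replicate 1 and 2482 CPM in replicate 2, and that of 9 neutrophil markers 7796 CPM in replicate 1 and 5316 CPM in replicate 2. Whether this makes part of the Fcgr1 difference was not tested.

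The gamma chain gene Fcer1g rose in HOXA9 OFF, and its CAF-1 OFF libraries overlapped the controls. Its level was 149 and 166 CPM in the uninduced libraries, 145 and 173 CPM in the IPTG control, 156 and 122 CPM in CAF-1 OFF and 380 and 532 CPM in HOXA9 OFF. The HOXA9 OFF libraries lay above all 6 others. In HOXA9 OFF the rise was 2.89-fold (log2 1.53 ± 0.19, FDR = 0.000356), while in CAF-1 OFF the change was -0.18 ± 0.19 with a 95% interval of -0.62 to 0.26 (FDR = 0.535), by edgeR's quasi-likelihood test. The interval holds no rise of the 1.5-fold needed for a call, but its lower end lies past a fall of that size. The direct difference between the treatments was -1.71 ± 0.20 (FDR = 0.000303 by edgeR). As these are bulk libraries, fewer cells of a type and less RNA per cell cannot be told apart for any of the 5 genes.

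**Figure D1:**
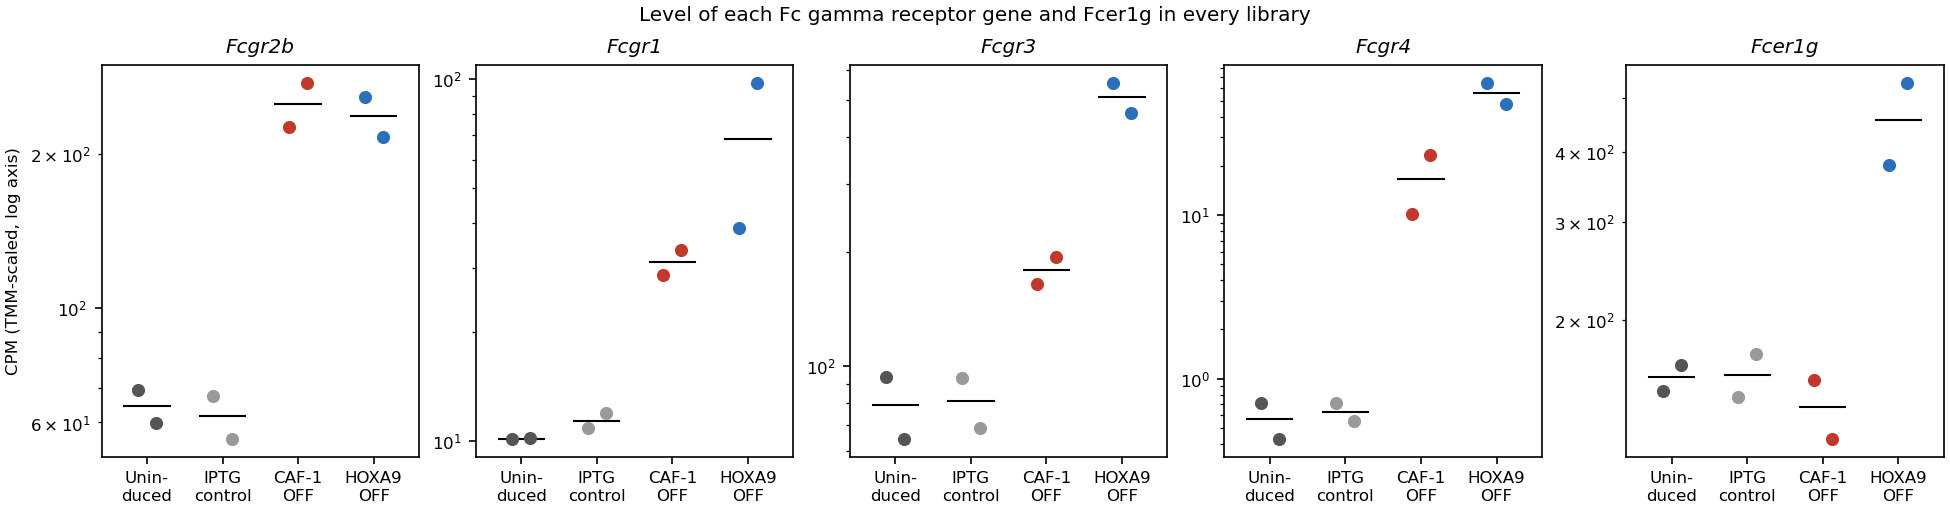
Level of the 5 genes in every library, in TMM-scaled CPM on log axes whose range differs by gene; points are replicates 1 and 2 from left to right, black lines group means. Fcgr2b stands at 215 to 274 CPM in both treated groups, Fcgr3 and Fcgr4 rise in 3 steps, and Fcer1g is high in HOXA9 OFF alone, at 380 and 532 CPM.

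Counted as calls (FDR under 0.05 and at least 1.5-fold), 4 of the 5 genes were higher in CAF-1 OFF than in uninduced cells, where 10.5% of all tested genes were called higher and 3.5% lower. Against the IPTG control, the same 4 genes were called in CAF-1 OFF, where 9.56% of all genes were called higher and 3.2% lower. There the edgeR log2 fold changes were 2.02 ± 0.16 for Fcgr2b (FDR = 0.00154), 1.46 ± 0.38 for Fcgr1 (FDR = 0.0375), 1.14 ± 0.22 for Fcgr3 (FDR = 0.0149) and 4.73 ± 0.50 for Fcgr4 (FDR = 0.00331), and Fcer1g was at -0.19 ± 0.19 (FDR = 0.501). In HOXA9 OFF, all 5 were higher than in uninduced cells, where 25.2% of genes were called higher and 22.1% lower. Between the treatments, 4 of the 5 were lower in CAF-1 OFF than in HOXA9 OFF, Fcgr2b being the exception, where 22.2% of genes were called higher and 21.4% lower.

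The calls of Fcgr1 and Fcgr3 in CAF-1 OFF depended on single libraries. Fewer genes of all those tested were also called under the omissions that lost them, as the closing section gives in part, so such losses are not particular to these genes. Without uninduced replicate 1, uninduced replicate 2 or CAF-1 OFF replicate 2, only 2 of the 5 genes, Fcgr2b and Fcgr4, were still called against uninduced cells, and without CAF-1 OFF replicate 1 Fcgr1 was lost and Fcgr3 kept, so that Fcgr1 was lost in 4 of 8 omissions and Fcgr3 in 3. Without CAF-1 OFF replicate 2, IPTG control replicate 1 or IPTG control replicate 2, the same 2 were left against the IPTG control. There Fcgr1 was lost in 6 of 8 omissions, also without CAF-1 OFF replicate 1 or either uninduced library, and Fcgr3 in 3. Over all single omissions the fold changes kept their sign, from 1.51 to 1.71 for Fcgr1 (FDR 0.00108 to 0.142 by edgeR) and from 0.93 to 1.47 for Fcgr3 (FDR 0.00837 to 0.1 by edgeR) against uninduced cells. The 5 calls in HOXA9 OFF were kept under every omission.

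The IPTG control shows how far cells given IPTG for 48 h, with a vector that the label does not state, differed from cells at 0 h. None of the 5 genes was called against uninduced cells by edgeR, where 0% of 13080 tested genes were called in either direction, 100 had an unadjusted p under 0.05, and DESeq2 called 5. No member was among the 100, and DESeq2 called none of them. The log2 fold changes were 0.17 for Fcgr1, -0.07 for Fcgr2b, 0.04 for Fcgr3, 0.14 for Fcgr4 and 0.01 for Fcer1g. The 95% interval was narrowest for Fcgr2b, from -0.44 to 0.30, and widest for the low-count Fcgr4, from -1.32 to 1.59.

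**Figure D2:**
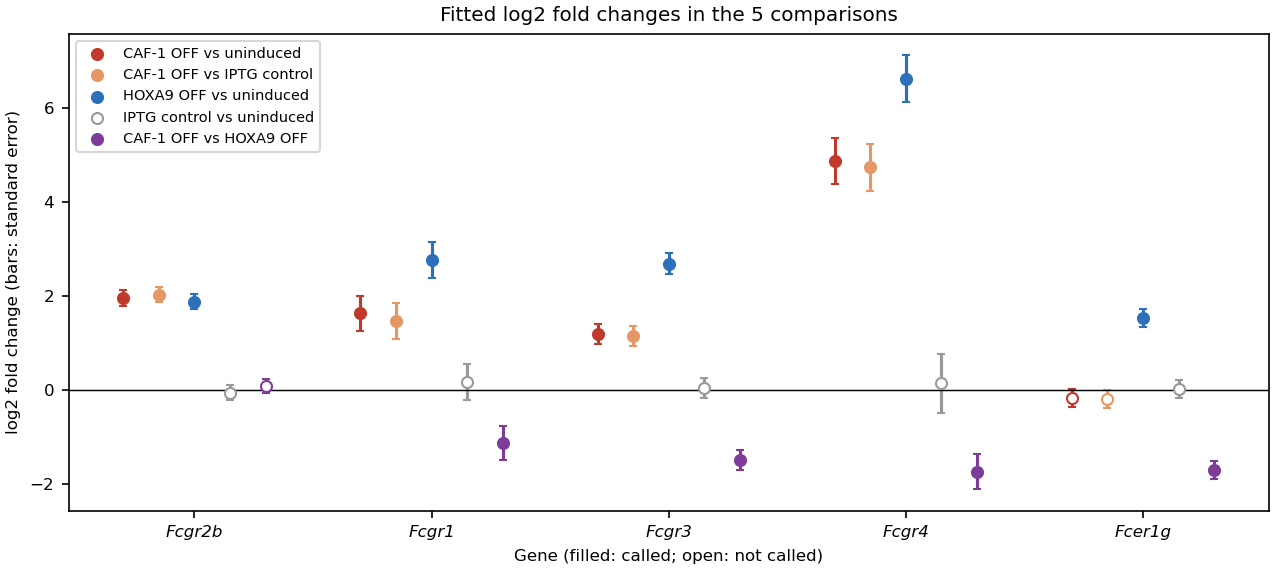
Fitted log2 fold changes of the 5 genes with standard errors in the 5 comparisons; filled points were called and open points were not. In CAF-1 OFF the 4 receptor genes lie above 0 and Fcer1g at -0.18, whereas in HOXA9 OFF all 5 lie above 0, from 1.53 for Fcer1g to 6.62 for Fcgr4.

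The ratio of Fcgr3 to Fcgr2b, the activating receptor gene and the inhibitory one with the most reads, lay on opposite sides of the controls in the 2 treatments. Within a library the ratio of Fcgr3 counts to Fcgr2b counts does not depend on library scaling, and a correction for length would multiply it alike in all libraries. The uninduced libraries had ratios of 1.35 and 1.08, the IPTG control 1.38 and 1.24, CAF-1 OFF 0.729 and 0.704, and HOXA9 OFF 2.15 and 2.14. The CAF-1 OFF libraries were below all 4 control libraries and the HOXA9 OFF libraries above them. With 2 libraries against 2, the two-sided exact permutation test gave p = 0.333 for CAF-1 OFF and for HOXA9 OFF against uninduced cells, which is the smallest p this design allows. This ratio does not stand for the other activating genes: in CAF-1 OFF the fold changes from uninduced cells were 3.08 for Fcgr1 and 29.2 for Fcgr4, beside 3.87 for Fcgr2b. Fcgr3 and Fcgr2b share near-identical stretches, so reads from there are an uncertain part of the ratio.

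Per kilobase of exon, Fcer1g was the most abundant of the 5 transcripts in every group, at 197 ± 14.9 CPM per kilobase in uninduced cells (mean ± SD, n = 2), 199 ± 24.8 in the IPTG control, 174 ± 30.0 in CAF-1 OFF and 570 ± 134 in HOXA9 OFF. Fcgr3 came next (45.4 ± 11.8 uninduced, 103 ± 11.8 CAF-1 OFF, 291 ± 37.1 HOXA9 OFF) and Fcgr2b after it (16.8 ± 1.76, 64.9 ± 9.06 and 61.5 ± 7.81). The order at the bottom changed: in uninduced cells Fcgr1 (3.87 ± 0.01) was above Fcgr4 (0.454 ± 0.16), in HOXA9 OFF Fcgr4 (44.8 ± 9.13) was above Fcgr1 (26.1 ± 15.9), and in CAF-1 OFF the libraries of Fcgr4 (13.4 ± 7.40) and Fcgr1 (11.9 ± 1.33) overlapped. The place of Fcgr2b depends on the length used. Per kilobase of the longest coding transcript, an alternative chosen after seeing the data, the ratio of Fcgr3 to Fcgr2b in CAF-1 OFF was 0.853 ± 0.02 rather than 1.59 ± 0.04 per kilobase of all exons, so that the order of these 2 genes turned there, while in uninduced cells, the IPTG control and HOXA9 OFF Fcgr3 was higher with both lengths.

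Set against the receptors that need it, the chain had a lower ratio in both treatments. Fcer1g divided by the sum of Fcgr1, Fcgr3 and Fcgr4, all per kilobase of exon, was 3.21 and 5.04 before treatment, 3.12 and 4.86 in the IPTG control, 1.72 and 1.07 in CAF-1 OFF and 1.24 and 1.95 in HOXA9 OFF. All 4 treated libraries were below all 4 controls, and the treatments overlapped (two-sided exact permutation p = 0.333 against uninduced cells for each treatment, the smallest possible here). In CAF-1 OFF the denominator rose with Fcer1g near its control level, and in HOXA9 OFF both rose. In the uninduced, IPTG control and HOXA9 OFF groups replicate 2 had more Fcer1g and less Fcgr3 than replicate 1, and in CAF-1 OFF the order was the reverse for both genes.

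**Figure D3:**
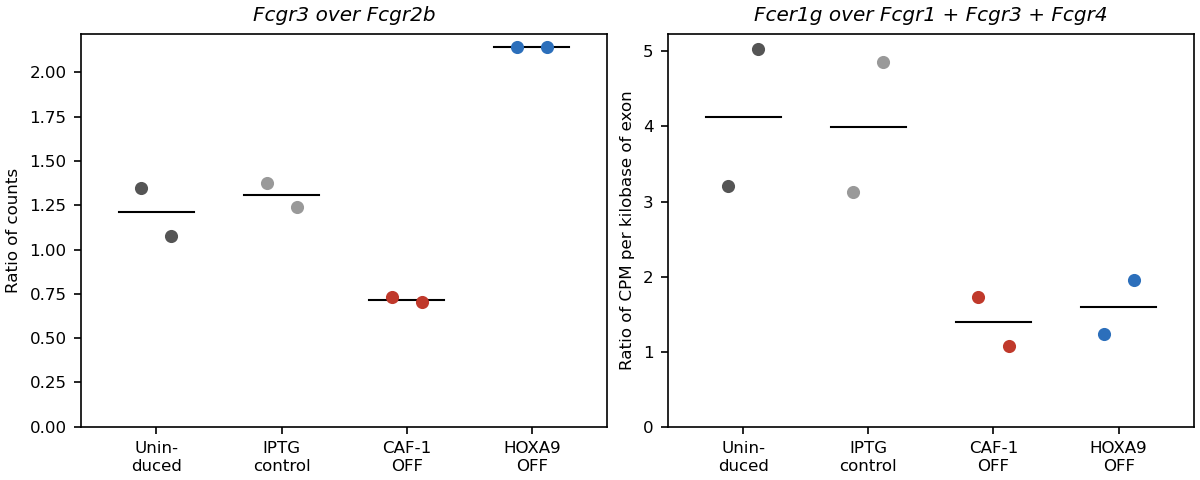
Ratio of Fcgr3 to Fcgr2b counts (left) and of Fcer1g to the sum of the activating receptor genes per kilobase of exon (right) in every library; points are replicates, lines group means. The first ratio is 0.704 to 0.729 in CAF-1 OFF and 2.14 to 2.15 in HOXA9 OFF with the controls between them, and the second is lower in both treatments than in the controls.

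Of the kinases, adaptors and enzymes that act below the ITAM, 26 were tested. In CAF-1 OFF, 3 of them rose against uninduced cells, a share near the 10.5% of all tested genes called higher: the SRC-family kinase gene Fgr (4.65 to 12.3 CPM, log2 1.40), Tec (log2 0.96) and the phosphoinositide 3-kinase subunit gene Pik3cb (log2 0.74). In HOXA9 OFF, 13 rose and 2 fell, where 25.2% of all tested genes were called higher and 22.1% lower. Among those that rose were Fgr (155 CPM, log2 5.06), the adaptor gene Blnk (log2 4.89, from 1.29 and 1.11 CPM to 8.41 and 63.3 CPM) and Lcp2, which encodes the adaptor SLP-76 (log2 3.05), and those that fell were Fyn (-1.24) and Plcg1 (-1.02). Blnk stayed called at 2.80 without HOXA9 OFF replicate 2 and at 5.71 without replicate 1, and Fyn lost its call without uninduced replicate 2 (-1.09, FDR = 0.0666 by edgeR) and stood at -1.87 without HOXA9 OFF replicate 2. In CAF-1 OFF, Fgr (1.22, FDR = 0.124), Tec (0.96, FDR = 0.0508) and Pik3cb (0.62, FDR = 0.114) all lost their edgeR calls without CAF-1 OFF replicate 2, and Fgr and Pik3cb also without either uninduced replicate. The median log2 change of the list was 0.12 in CAF-1 OFF and 0.85 in HOXA9 OFF, beside 0.01 over all tested genes in both.

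Syk, whose kinase binds the phosphorylated chain, was called in HOXA9 OFF and not in CAF-1 OFF. Uninduced libraries had 174 and 208 CPM of it, CAF-1 OFF 192 and 201 CPM and HOXA9 OFF 524 and 487 CPM. Lyn, a SRC-family kinase that phosphorylates the motif, had 93.6 and 79.5, 110 and 131, and 322 and 321 CPM in the same order of groups. Both were picked for this description by their role. Their edgeR changes were 0.04 (FDR = 0.855) and 0.48 (FDR = 0.0516) in CAF-1 OFF, and 1.40 (FDR = 6.6e-05) and 1.89 (FDR = 3.86e-05) in HOXA9 OFF. In the direct comparison, 14 of the 26 were lower in CAF-1 OFF than in HOXA9 OFF and 2 were higher, beside 21.4% and 22.2% of all tested genes.

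Among 12 genes of inhibitory signalling, 3 rose in CAF-1 OFF and 9 in HOXA9 OFF, beside 10.5% and 25.2% of all tested genes. The 3 were Lilrb3, the files' symbol for the inhibitory receptor gene Pirb (log2 1.26), Pag1, an adaptor that holds the kinase CSK at the membrane (0.85), and the phosphatase gene Ptpn22 (0.74). In HOXA9 OFF the changes of these were 7.67, 2.46 and 2.64, and Cblb, a ubiquitin ligase gene, followed with 1.39, from 22.7 and 62.1 CPM in its HOXA9 OFF libraries. Cblb was no longer called without HOXA9 OFF replicate 2 (0.48, FDR = 0.105 by edgeR) or without either uninduced replicate. Without CAF-1 OFF replicate 2 or either uninduced replicate, Lilrb3, Pag1 and Ptpn22 lost their CAF-1 OFF calls, Pag1 doing so when any 1 library of CAF-1 OFF, uninduced cells or the IPTG control was left out. Against the IPTG control, 2 of the 12 were called higher in CAF-1 OFF, beside 9.56% of all tested genes, and Lilrb3 was at 0.78 (FDR = 0.132 by edgeR) and not called. Lilrb3 went from 13 and 14 counts in the uninduced libraries to 1916 and 2803 counts in HOXA9 OFF. The phosphatase gene Inpp5d, whose product FcγRIIB recruits, averaged 208 CPM before treatment, 230 CPM after CAF-1 suppression (log2 0.15, FDR = 0.287 by edgeR) and 342 CPM in HOXA9 OFF (log2 0.72, FDR = 0.00036 by edgeR).

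Other ITAM or adaptor chains did not move as one. Tyrobp, the chain gene most like Fcer1g in role, encoding DAP12, stood at 113 and 101 CPM before treatment, at 82.5 and 62.8 CPM in the CAF-1 OFF libraries and at 710 and 721 CPM in those of HOXA9 OFF. Its CAF-1 OFF libraries lay below the uninduced ones, by -0.56 on the log2 scale (FDR = 0.0303 by edgeR, short of the 1.5-fold needed for a call), and in HOXA9 OFF it rose by 2.74 (FDR = 1.55e-05 by edgeR). Cd79a, the B cell receptor chain, rose in both (2.82 and 1.46) and Hcst, encoding DAP10, in HOXA9 OFF (1.15), so that 1 of 4 tested chains rose in CAF-1 OFF and 3 of 4 in HOXA9 OFF, beside the 10.5% and 25.2% of all genes. Cd79a lost its call in HOXA9 OFF without HOXA9 OFF replicate 2 (0.78, FDR = 0.0956 by edgeR) or either uninduced replicate, and in CAF-1 OFF without CAF-1 OFF replicate 2 (2.82, FDR = 0.0508 by edgeR) or uninduced replicate 1.

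Of the receptors other than Fc gamma receptors that pair with the gamma chain, 8 of the 11 listed were in the files and 4 were tested. None of the 4 was called in CAF-1 OFF by edgeR or by DESeq2, and 0 had an unadjusted p under 0.05. Of all tested genes, edgeR called 10.5% higher and 3.5% lower there. In HOXA9 OFF, where 25.2% of all genes rose, 2 of the 4 did: Clec4n, the gene of dectin-2, from 4 and 17 counts to 466 and 1959, and Pira2, from 0 and 2 counts to 66 and 122. The high-affinity IgE receptor, the chain's namesake partner, was not apparent at the RNA level: Fcer1a had 0 counts in the uninduced libraries and at most 5 in any library, while its beta chain gene Ms4a2 averaged 6.81 CPM before treatment and 8.37 CPM after CAF-1 suppression.

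Among 6 tested Fc receptors for other tasks, 2 rose in CAF-1 OFF, beside 10.5% of all genes. Fcgrt, the neonatal Fc receptor that recycles immunoglobulin G, rose in CAF-1 OFF (2.80 to 8.28 CPM, log2 1.56) and in HOXA9 OFF (17.2 CPM, log2 2.62), and Trim21, a cytosolic Fc receptor, rose in CAF-1 OFF by 0.71 and in HOXA9 OFF by 0.83. In HOXA9 OFF, 4 of the 6 rose (25.2% of all genes) and Pigr, the polymeric immunoglobulin receptor gene, fell from 19 and 27 counts to 4 and 0, a call lost without uninduced replicate 2 (FDR = 0.0739 by edgeR). The CAF-1 OFF call of Fcgrt was lost without uninduced replicate 1 or CAF-1 OFF replicate 2, and that of Trim21 when any 1 library of CAF-1 OFF, uninduced cells or the IPTG control was left out. Fcrl1 (3.69) and Fcrls (0 to 5 counts in the controls, 66 and 93 in HOXA9 OFF) were among those that rose. The actin machinery of the phagocytic cup held 18 tested genes. In CAF-1 OFF, where 3.5% of all genes were called lower, the single call was Cfl1, the actin-severing cofilin gene, which fell from 1480 to 865 CPM (log2 -0.77), a call lost without uninduced replicate 1 or CAF-1 OFF replicate 2. In HOXA9 OFF, 10 of the 18 rose, beside 25.2% of all genes, with Myo10 (1.61), Coro1a (1.28), the ARP2/3 subunit gene Arpc2 (1.21) and the GTPase gene Rac2 (1.16) at the top, and 14 were lower in CAF-1 OFF than in HOXA9 OFF, beside 21.4% of all genes. Myo10 lost its call without uninduced replicate 1 (1.20, FDR = 0.102 by edgeR) or HOXA9 OFF replicate 2 (1.28, FDR = 0.102 by edgeR).

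Genes of transcription factors linked to these receptors or to myeloid cells numbered 8. In CAF-1 OFF, 2 of them rose, with Stat3 (0.77, its call lost without uninduced replicate 1) among them, beside 10.5% of all genes. In HOXA9 OFF, 6 rose, beside 25.2% of all genes, with Sfpi1, the files' symbol for the PU.1 gene (167 to 728 CPM, 2.13), Irf8 (2.08) and Irf1 (1.43) among them. Sfpi1 was at 224 CPM in CAF-1 OFF (log2 0.43, FDR = 0.127 by edgeR).

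**Figure D4:**
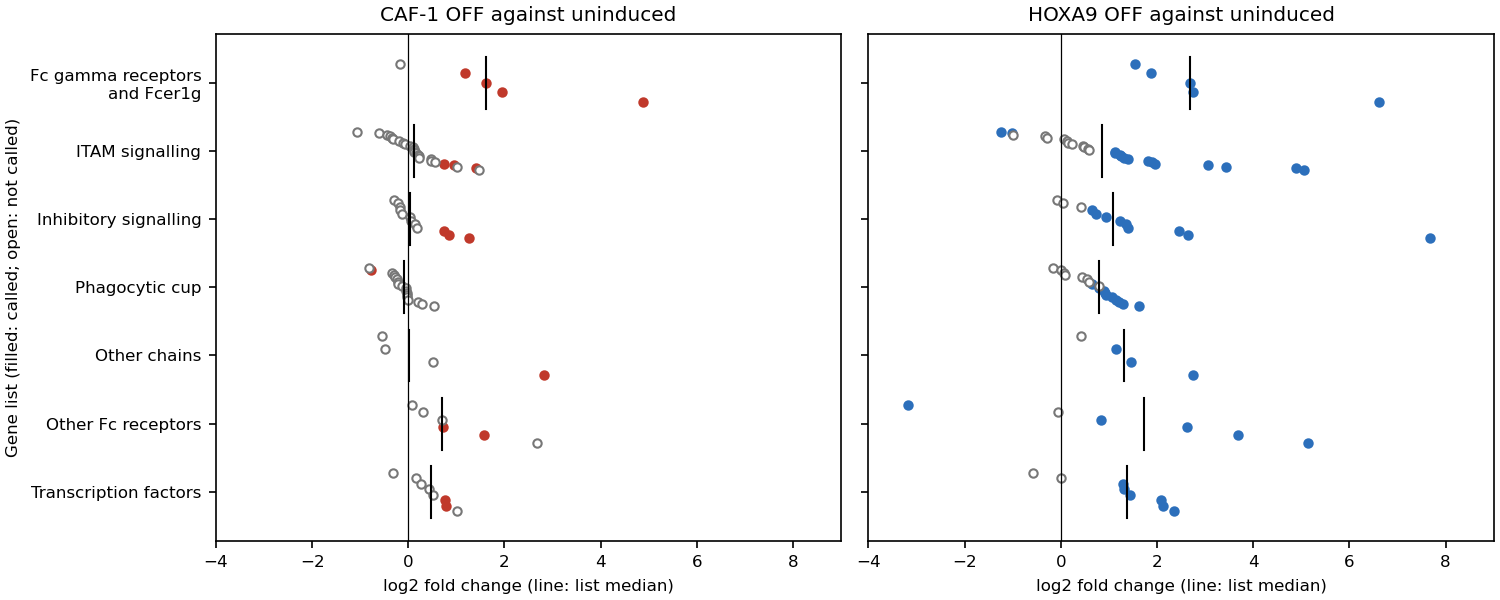
Log2 fold change from uninduced cells of each tested gene in 7 gene lists, in CAF-1 OFF (left) and HOXA9 OFF (right); filled points were called, open points were not, and vertical lines are list medians. The ITAM signalling list holds 3 called genes on the left and 15 on the right, and the phagocytic cup list 1 and 10.

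The neighbours of the genes on chromosome 1 did not follow them as a block. Next to Fcer1g, the apolipoprotein gene Apoa2, 3192 bases away, was called in CAF-1 OFF where Fcer1g was not. Its uninduced libraries had 1.42 and 1.88 CPM, those of CAF-1 OFF 10.7 and 14.5 CPM and those of HOXA9 OFF 1.19 and 1.14 CPM. This was a rise of 2.93 ± 0.29 in CAF-1 OFF (FDR = 0.00245 by edgeR) against -0.50 ± 0.30 in HOXA9 OFF (FDR = 0.188, the same test). Tomm40l was not called against uninduced cells, and was called higher in CAF-1 OFF than in HOXA9 OFF (0.62, FDR = 0.017 by edgeR). Adamts4 had at most 4 counts outside CAF-1 OFF, where it had 13 and 61. In CAF-1 OFF it was called against the IPTG control (8.22, FDR = 0.0432 by edgeR) and HOXA9 OFF (4.54, FDR = 0.0283 by edgeR). Against uninduced cells it was not called (4.38, FDR = 0.0575 by edgeR). Beside the receptor cluster, 1700009P17Rik and Sdhc were not called in any comparison, and Fcrla and Fcrlb had at most 8 counts in any library. The 4 nearest protein-coding neighbours of Fcgr1 had too few reads to test.

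**Figure D5:**
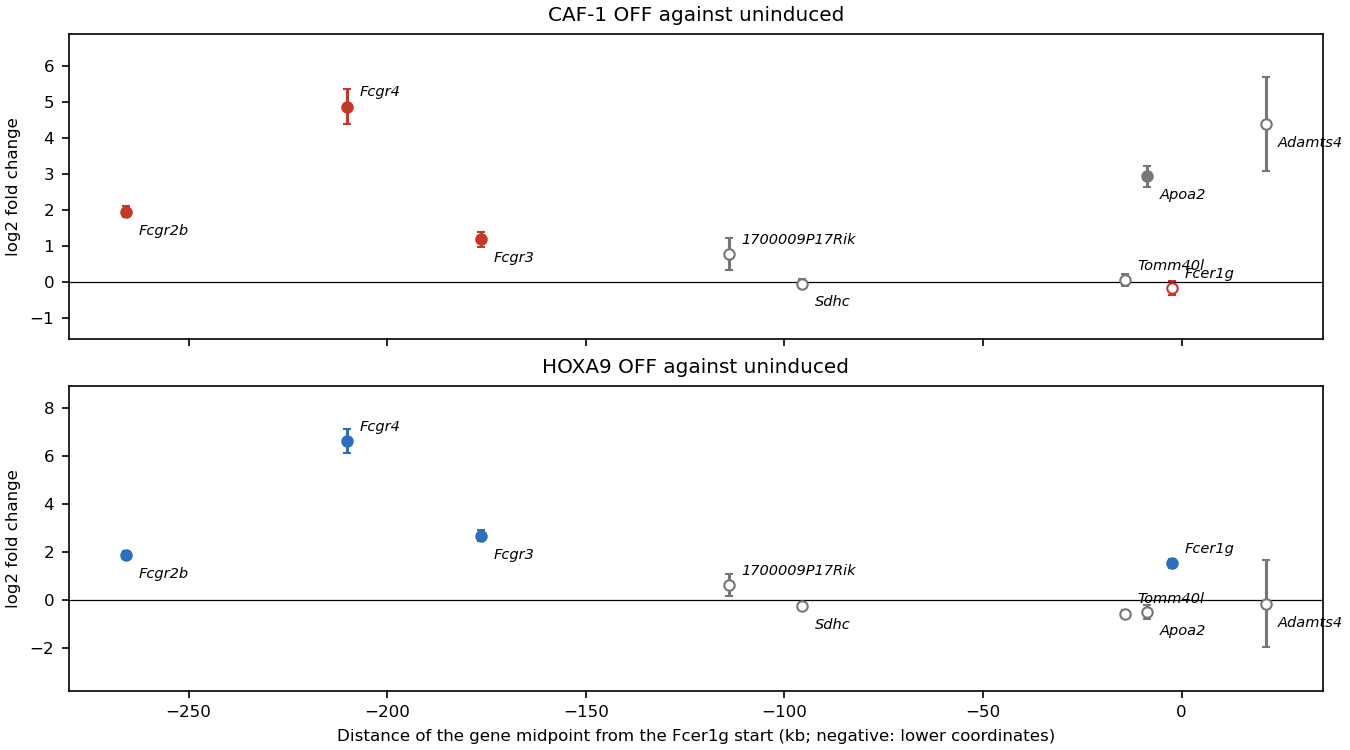
Log2 fold change from uninduced cells (bars: standard error) of the chromosome 1 genes and of tested neighbours against the distance from the Fcer1g start; coloured points are Fcgr2b, Fcgr4, Fcgr3 and Fcer1g, grey points neighbours, and filled points were called. In CAF-1 OFF Apoa2 was called beside an uncalled Fcer1g, and in HOXA9 OFF Fcer1g was called beside an uncalled Apoa2.

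Across the 8 libraries, the log2 levels of the 5 genes were most alike for Fcgr2b and Fcgr4 (Pearson r = 0.963) and least alike for Fcgr2b and Fcer1g (r = 0.407). These correlations describe 8 libraries in 4 groups, and a shared difference between groups is enough to give a high value. Among 9839 genes at adequate level, those most like Fcgr2b were Acpp (r = 0.995; 47.2 CPM uninduced, 411 CAF-1 OFF, 438 HOXA9 OFF), Ly6c2 (r = 0.993; 24.2, 223 and 207 CPM), a surface protein gene of monocytes, and BC017647 (r = 0.991). Fcgr4 went with Gm14005 (0.998), Anxa1 (0.997) and the neutrophil chemokine receptor gene Cxcr2 (0.997), and Fcgr3 with F730016J06Rik (0.9995), Wbp2 (0.998) and Padi4 (0.998), which encodes the histone-citrullinating enzyme of neutrophils. Fcgr1 went with Trim30a (0.995), Gpnmb (0.992) and B4galt5 (0.987), and Fcer1g with Jak1 (0.993), P2rx4 (0.993) and RP24-386J17.2 (0.992), the first of which averaged 179 CPM before treatment, 167 CPM after CAF-1 suppression and 388 CPM without estradiol. In HOXA9 OFF the replicates stood far apart for Fcgr1 (68.3 ± 41.6 CPM, mean ± SD, n = 2), Trim30a (93.5 ± 41.4) and Gpnmb (1434 ± 1917). The matches of Fcgr1 thus also reflect a difference between these replicates.

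Markers of several cell types differed between the same groups. Their sums are given for uninduced, CAF-1 OFF and HOXA9 OFF libraries in turn, the IPTG control being close to uninduced cells. Summed neutrophil markers ran from 41.7 to 46.4, 124 to 163 and 5316 to 7796 CPM, with 5 of 9 called higher in CAF-1 OFF and all 9 in HOXA9 OFF, where 10.5% and 25.2% of all tested genes were called higher (22.1% lower in HOXA9 OFF). Summed monocyte and macrophage markers were at 398 to 557, 286 to 546 and 1436 to 2482 CPM, with 2 and 6 of 7 tested called higher. A sum is weighted to the genes with the most reads. In CAF-1 OFF the median log2 change of the 7 was 1.59 although the sum did not rise, with Ccr2 at -0.45 and not called. Mast cell and basophil markers, of cells that carry Fcgr2b, Fcgr3 and Fcer1g, were at 261 to 338, 851 to 1230 and 410 to 426 CPM, with 2 of 5 tested higher in CAF-1 OFF, and 1 higher and 1 lower in HOXA9 OFF. Of other lists, B cell markers summed to 131 to 153, 121 to 167 and 58.7 to 68.2 CPM, natural killer cell markers to 7.65 to 13.8, 44.7 to 49.0 and 7.43 to 12.3 CPM with Ncr1 at 0 in every library, platelet markers to 23.6 to 25.2, 189 to 217 and 128 to 138 CPM, and erythroid markers to 4.79 to 7.70, 15.4 to 15.8 and 12.7 to 22.8 CPM. Progenitor markers were at 11247 to 14935, 15194 to 15904 and 5371 to 7198 CPM, with 5 of 7 lower in HOXA9 OFF. Cd79a and Ms4a2 are also on the lists of chains and of Fc receptors above. The part of these cell types in the receptor changes was not tested.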

How the data were processed

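Per the labels and the study's methods, the authors made NEB RNA-seq libraries, aligned reads to mm9 with STAR and deposited raw read counts per gene from HTSeq, with no normalization or pooling. HTSeq's summary rows were kept out of library sizes and tests. The strand setting is not given in the sources used here. These counts went into edgeR 4.0.16 under R 4.3.3 (filterByExpr, TMM with factors from 0.894 to 1.06, one quasi-likelihood fit of all 8 libraries with a mean per group, Benjamini-Hochberg adjustment over 13080 genes). Genes at an FDR under 0.05 that changed 1.5-fold or more were called. DESeq2 1.42.0, other scalings and filters, a stricter threshold, a replicate block and single omissions were alternatives. With 2 libraries per group, precision rests on a spread shared between genes (biological coefficient of variation 18.9%), and counts of 3 or fewer were read as the floor. SEs were derived from the F statistic. Lengths and positions came from GENCODE vM1, promoters from RefSeq.

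Some genes that the naming rule covers are not reported here. The 5 genes and all lists were chosen with earlier results of these data known. Named by rule were the 5 genes, up to 4 called genes per list with the largest change, the nearest 2 protein-coding genes on each side, and the 3 genes with the highest correlation (log2 CPM, prior count 2) among genes whose mean log2 CPM was 2 or more. Syk, Lyn, Inpp5d and the members of the lists given for their role were named outside the rule, after their values were seen.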

Additional observations from a re-analysis of the deposited data

How the results depend on the processing

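At an FDR under 0.01 and at least 2-fold, 2 of the 5 genes were called in CAF-1 OFF against uninduced cells and 2 against the IPTG control, Fcgr1 and Fcgr3 being lost. The share of all tested genes called at that threshold was not computed, so this drop has no background beside it. Leaving out single libraries gave 2 to 4 calls in each of these comparisons, 5 in HOXA9 OFF against uninduced cells, and 3 to 4 between the treatments. The call of Fcgr1 between the treatments was also lost at that stricter threshold (-1.13, FDR = 0.031 by edgeR), with library size alone as the scaling (-0.90, FDR = 0.0686 by edgeR) and with only the compared groups in the fit (-1.14, FDR = 0.1 by edgeR). Signs turned in values that were not called: over single omissions, the change in the IPTG control against uninduced cells ran from -0.22 to 0.065 for Fcgr2b, -0.21 to 0.33 for Fcgr3, -0.19 to 0.54 for Fcgr4 and -0.12 to 0.13 for Fcer1g, and the difference of CAF-1 OFF from HOXA9 OFF in Fcgr2b from -0.069 to 0.21. The cause was not tested. Fcgr2b and Fcgr4 in CAF-1 OFF, and all 5 genes in HOXA9 OFF, kept their calls under each alternative run, DESeq2 included.

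With library size alone, the median change of all genes in HOXA9 OFF was -0.18, and 2715 genes were called higher and 3701 lower, against 3293 and 2886 with TMM. Between the treatments that scaling gave a median of 0.27, with 3949 higher and 2064 lower against 2898 and 2797. Genes called higher in CAF-1 OFF against uninduced cells numbered 1378 with all libraries, 138 without uninduced replicate 1, 540 without uninduced replicate 2 and 252 without CAF-1 OFF replicate 2. Against the IPTG control they numbered 1251 with all, 785 and 219 without CAF-1 OFF replicate 1 or 2, and 229 and 160 without IPTG control replicate 1 or 2. With the replicate number as a block, 4, 5, 0, 4 and 4 of the 5 genes were called in CAF-1 OFF, HOXA9 OFF and the IPTG control against uninduced cells, in CAF-1 OFF against the IPTG control and between the treatments, which are the calls without it. Of all 13080 tested genes, the block gave 1602, 3365, 0 and 1454 called higher in these comparisons in turn, and 2858 called lower between the treatments. Deviations of same-numbered libraries correlated at 0.475, 0.301 and 0.316 among the uninduced, IPTG control and HOXA9 OFF groups, and between -0.04 and 0.08 for CAF-1 OFF with each of these. Same-numbered libraries of 3 groups thus deviated together, those of CAF-1 OFF did not, and the labels do not say what a number marks. Fcgr4 had the fewest counts of the 5 genes in the controls, 9 to 16, and how far depth limits its fold change was not tested.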
